A study of Mus musculus with 4 samples.

Results

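Replication-dependent histone genes were examined in 4T1 mouse mammary tumor cells sorted for high or low mitochondrial membrane potential (MMP). A gene was a member if its symbol in GENCODE M21 started with Hist1h, Hist2h, Hist3h or Hist4h and its type was protein coding, with no filter on expression. Of the 20197 genes in the table, 46 were members, out of 67 such genes in the annotation. The other 21 were not in the table and were not analysed here. The members covered 4 of 6 annotated H1 genes, 11 of 18 H2A, 11 of 18 H2B, 8 of 12 H3 and 12 of 13 H4 genes. Chromosome 13 held 39 members, chromosome 3 held 5, and chromosomes 11 and 6 held 1 each.

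Both groups were the epithelial line 4T1, which forms lung metastases in mice and stands in for triple negative breast cancer, and the labels name no genetic change or drug in either. MitoSpy Red, whose uptake into mitochondria follows their potential, was applied at 20 nM, and the top and bottom 5% of cells by staining were sorted as high MMP and low MMP, 2 samples each. Every sample held 100000 cells, of whose RNA 200 ng was made into a stranded mRNA library. The labels do not say whether the samples of a group came from separate cultures, but the study's legend for this comparison counts them as independent experiments or tumors, and the p-values measure the spread between these samples.

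Histones package DNA: H2A, H2B, H3 and H4 form the core of the nucleosome, and H1 binds the linker DNA between cores. Cells that copy their DNA need new histones at once, and the replication-dependent genes, present in many near-identical copies in clusters, are transcribed mostly in S phase. Their mRNAs are unusual, because they have no introns as a rule and end in a conserved stem-loop bound by SLBP in place of a poly(A) tail, although some of the genes can also give polyadenylated mRNAs. Preparation of mRNA libraries usually selects poly(A) tails, so values for these genes describe the RNA that was captured, and in bulk samples fewer cells in S phase and less RNA per cell cannot be told apart.

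The stem-loop and the poly(A) signal of the best measured members are shown because these ends decide which form of the mRNA carries a tail. Each window is 30 bases of the annotated transcript on GRCm38, 5′ to 3′, with the stem-loop (16 bases) or the hexamer in capitals.
Hist1h1c stem-loop, chr13:23739505-23739534 (+): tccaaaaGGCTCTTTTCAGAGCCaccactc
Hist3h2a stem-loop, chr11:58955165-58955194 (+): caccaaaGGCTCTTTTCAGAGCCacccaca
Hist1h4i stem-loop, chr13:22040959-22040988 (-): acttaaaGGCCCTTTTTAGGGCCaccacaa
Hist1h1c annotated end, chr13:23740332-23740361 (+): gtatgcttctAATAAAaagcgtttagtttt
Hist3h2a annotated end, chr11:58956787-58956816 (+): gtatatgcccAATAAAataagagtacgtgt
Hist1h4i annotated end, chr13:22040637-22040666 (-): ttctgtttacATTAAAagtattctatgcta
Hist2h2be annotated end, chr3:96223707-96223736 (+): tattattattAATAAAgttaccgattagtt

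The histone stem-loop consensus was found within 80 bases after the stop codon in 35 of the 46 members (76.1%) but in 2 of 21834 other protein-coding genes (0.00916%). It began 22 to 55 bases after the stop codon. A single form, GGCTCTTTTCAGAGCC, stood in 17 members of the classes H1, H2A, H2B and H3, while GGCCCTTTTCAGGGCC stood in 6 members, all H4. Of the other 11 members, 9 had annotated transcripts that ended within 3 bases of the stop codon, so their models hold no room for it. The 2 exceptions with a longer model were Hist1h2bc and Hist2h2be, and a missing match says only that these letters were not in the annotated transcript.

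A poly(A) signal was AATAAA or ATTAAA in the last 40 bases of any annotated protein-coding transcript. It was found in a smaller share of the members than of other genes. It was present in 12 of 46 members (26.1%), against 75.5% of the other protein-coding genes. Of the 34 members without it, 9 had annotated transcripts that ended within 3 bases of the stop codon and so had no room for it. The shares thus depend on how far each transcript is annotated. Of the 12 members with the signal, 11 also had the stem-loop, which lies upstream of the annotated end in Hist1h1c, Hist3h2a and Hist1h4i as printed above. By class, the signal stood in 1 H1, 2 H2A, 3 H2B, 0 H3 and 6 H4 members.

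The depth was 22591970 to 26395015 reads per library, and values are given as normalized reads, with each library scaled to the same total of 20000000 (whole reads follow from them by a constant factor per library). Epcam, a defining epithelial marker, had 3647 to 4619 normalized reads, and Ptprc, which marks leukocytes, had at most 1.77. Of 8 leukocyte markers 3 were in the table, with a sum of 10.0 to 12.1 in the high and 6.97 to 15.05 in the low MMP libraries. Of 8 fibroblast and endothelial markers 6 were in the table, with a sum of 343 to 378 in the high and 550 to 613 in the low MMP libraries, of which Pdgfra gave 319 and 363 against 536 and 589 and each of the others at most 10.46. The part of Pdgfra-bearing cells in the results was not tested. The 2 high MMP libraries lay farther apart than the low MMP libraries, with an SD of the log2 difference between replicates of 0.398 against 0.288 over the 12902 genes whose mean was 10 or more.

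The members were barely measured in these libraries. Their summed level was 395 normalized reads in high MMP 1, 126 in high MMP 2, 447 in low MMP 1 and 577 in low MMP 2. This was 0.00197% of all reads in high MMP 1 (521 reads, Wilson 95% interval 0.00181% to 0.00215%) and 0.000628% in high MMP 2 (150 reads, 0.000535% to 0.000736%). It was 0.00224% in low MMP 1 (513 reads, 0.00205% to 0.00244%) and 0.00289% in low MMP 2 (652 reads, 0.00267% to 0.00312%), with intervals that cover counting error only. The mean over the 4 libraries was at least 10 normalized reads for 5 members, 1 to 10 for 27 and under 1 for 14, whereas the median over all genes was 92.5. Of the 46 members, 22 had no read in at least 1 library, and 22 had at most 3 reads in any library.

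The 5 members with a mean of at least 10 were Hist1h1c, Hist1h4i, Hist1h2bc, Hist2h2be and Hist3h2a, and they held 75.8% of the 1836 reads of all members. The remaining 41 members ranged in mean from 0.431 (Hist1h3f) to 7.54 (Hist1h2be), with at most 14 reads in a library. Per kilobase of exon, the mean level was 94.5 for Hist1h1c, 63.6 for Hist1h4i, 36.6 for Hist1h2bc, 15.7 for Hist2h2be and 7.64 for Hist3h2a. The lowest level per kilobase was that of Hist1h3f, 0.341, and the median over the members was 2.48.

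Summed over all members, the high MMP libraries had 260 ± 190 and the low MMP libraries 512 ± 91.9 normalized reads (SD, n = 2 each), a log2 ratio of the means of -0.98. The groups did not overlap, but the gap between them rested on high MMP 2, which had 3.14-fold fewer histone reads than high MMP 1. With high MMP 2 left out, the log2 ratio was -0.38, and with high MMP 1 left out it was -2.03. The low MMP libraries were 1.29-fold apart. No test was made of sums, and 2 samples against 2 cannot give a two-sided exact permutation p below 0.333.

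**Figure D1:**
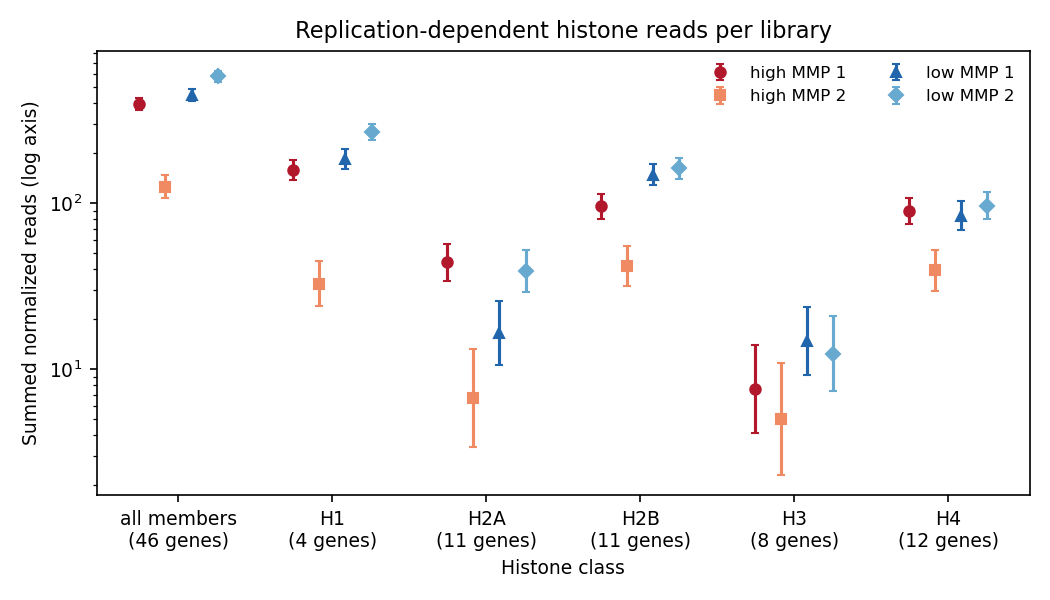
Summed normalized reads of the members, in all and by histone class, in each of the 4 libraries (log axis, bars are Wilson 95% intervals for counting error). The point of high MMP 2 is the lowest in every class, and high MMP 1 lies above both low MMP libraries for H2A and between them for H4.

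The summed levels of the classes did not behave alike in high MMP 1, while each was lowest in high MMP 2. The summed H1 level was 158 in high MMP 1, 32.6 in high MMP 2, 184 in low MMP 1 and 267 in low MMP 2, a log2 ratio of -1.24. For H2B the levels were 95.5, 41.8, 148 and 162 in the same order, a log2 ratio of -1.18. In both classes the high MMP libraries lay under the low MMP libraries, and without high MMP 2 the log2 ratios were -0.51 for H1 and -0.70 for H2B. Hist1h1c held 698 of the 761 H1 reads, so the H1 sum is mostly that of 1 gene. Without the member with the most reads the log2 ratios were -0.78 for H1 and -0.93 for H2B.

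H3 was the least abundant class, with 7.58 and 5.02 summed normalized reads in high MMP 1 and 2 and 14.8 and 12.4 in low MMP 1 and 2. These sums stand for 6 to 17 reads per library, and the Wilson intervals of the shares overlap between the groups. The groups did not overlap in the values themselves, at a log2 ratio of -1.11, and -0.84 without high MMP 2.

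H2A and H4 did not separate the groups. H2A had 43.9 in high MMP 1, the highest of the 4 libraries, against 6.69 in high MMP 2, 16.6 in low MMP 1 and 39.0 in low MMP 2. Its log2 ratio of -0.13 turned to 0.66 without high MMP 2, to 0.61 without low MMP 2 and to 0.03 after quantile normalization. H4 had 89.4 and 39.3 in high MMP 1 and 2 and 83.7 and 96.5 in low MMP 1 and 2, a log2 ratio of -0.48 that was -0.01 without high MMP 2. For both classes, then, high MMP 1 was within the range of the low MMP libraries or above it. Hist3h2a held 80 of the 129 H2A reads and Hist1h4i 221 of the 370 H4 reads. Without these genes the log2 ratios were -0.24 for H2A and -0.30 for H4.

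Gene by gene, differences were tested on the log2(value + 1) scale with limma, with p-values adjusted by Benjamini-Hochberg over all 20197 genes. No member had an adjusted p under 0.05 in limma, where 0% of all genes did, and the smallest adjusted p was 0.472. At an unadjusted p under 0.05 there were 6 members (13.0% of them), against 9.96% of all genes. Of the 6, 4 had no read in 1 whole group, and the filter on the table kept them through the other group alone. With edgeR on the recovered whole reads no member was called either (0% of all genes), and 4 had an unadjusted p under 0.05 (7.05% of all genes). DESeq2 called no member and 0.584% of all genes, with 2 members at an unadjusted p under 0.05 (3.27% of all genes). It gave an adjusted p only for Hist1h1c, Hist1h4i, Hist1h2bc and Hist2h2be, of which the smallest was 0.257. The other members got none from DESeq2 and could not be called by it.

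By direction, 31 of 46 members were lower in high MMP cells, against 58.6% of all genes. The median log2 difference of the members was -0.51, against -0.04 over all genes, and -0.39 with the 4 members that had no read in 1 whole group set to the bound that 3 reads per library allow. It was -0.09 without high MMP 2 and -0.85 without high MMP 1. Its size depended on the pseudocount, as most members have few reads. With a pseudocount of 10 the median was -0.10 for the members and -0.02 over all genes. With 0.5 the medians were -0.70 and -0.04. In 19 members both high MMP values lay under both low MMP values (24.5% of all genes), and in 3 members both lay over them (13.5% of all genes). These counts include the 4 members with no read in 1 whole group. The 19 also include members that tie in whole reads, such as Hist1h2ac with 2 and 1 reads against 3 and 2. They separate only by scaling, as 1 read is 0.758 and 0.837 normalized reads in high MMP 1 and 2. In low MMP 1 and 2 it is 0.872 and 0.885. Among all genes with a mean under 10, both high MMP values lay under both low MMP values in 25.8%. High MMP 2 had the lowest of the 4 values in 25 members, against 26.5% of all genes.

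By class, 3 of 4 H1, 7 of 11 H2A, 9 of 11 H2B, 6 of 8 H3 and 6 of 12 H4 members were lower in high MMP cells, against 58.6% of all genes. The median log2 difference was -0.86 for H1, -0.69 for H2B, -0.61 for H3 (-0.24 with the gene at 0 set to its bound), -0.24 for H2A and 0.02 for H4. Both high MMP values lay under both low MMP values in 24.5% of all genes. Among the members this was so in 2 of 4 H1, 3 of 11 H2A, 6 of 11 H2B, 5 of 8 H3 and 3 of 12 H4 genes. The 5 H3 members had at most 8 reads in a library. These class counts too include members that tie in whole reads and separate only by scaling. The single genes ran from -1.84 to 1.00 in H2B and from -2.02 to 1.31 in H4, where all of these ends but that of Hist1h2bc rest on at most 5 reads per library (Hist1h2bb, Hist2h4 and Hist1h4b). Differences within a class were not tested.

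**Figure D2:**
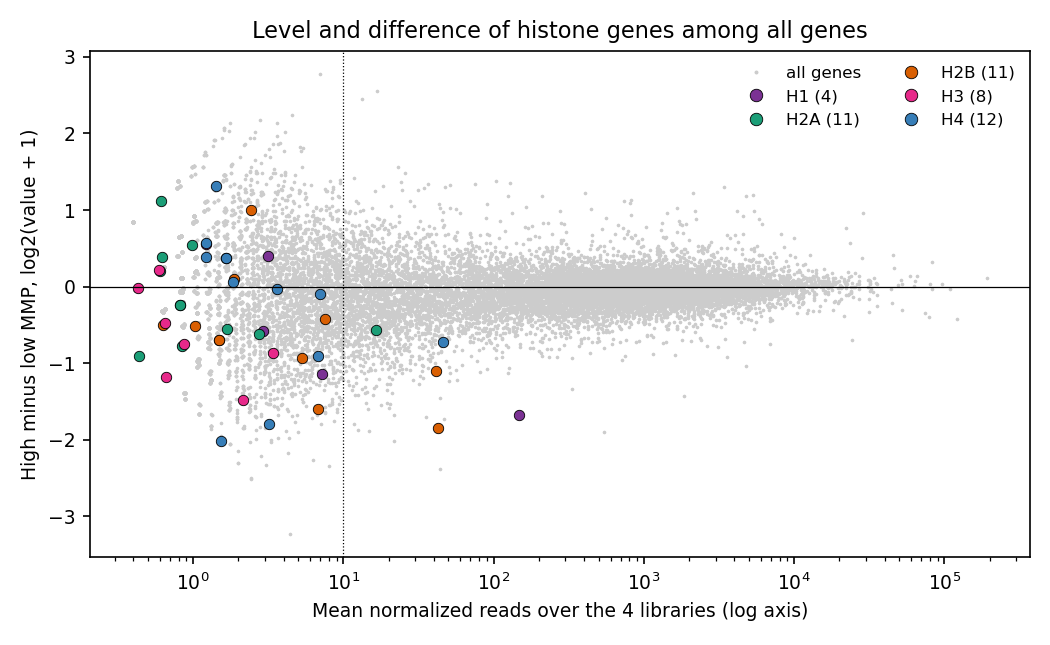
Mean normalized reads (log axis) against the high minus low MMP difference on the log2(value + 1) scale for all 20197 genes (grey) and the members colored by class, with a dotted line at a mean of 10. All but 5 members lie left of the line, where single reads decide the difference, and the 5 to its right all lie under 0 (Hist3h2a turned to 0.99 without high MMP 2).

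Hist1h1c encodes linker histone H1.2, a somatic H1 made in many tissues. The gene (ENSMUSG00000036181, GRCm38 chr13:23738808-23740367, plus strand) had 144 normalized reads in high MMP 1, 27.6 in high MMP 2, 172 in low MMP 1 and 246 in low MMP 2. Both high MMP values were under both low MMP values, but the 2 high MMP libraries were 5.21-fold apart, farther than the groups, whose means were 2.44-fold apart. The log2 difference was -1.68 (SE 0.84), with an unadjusted limma p of 0.111 and an adjusted p of 0.641. It was -0.51 without high MMP 2 and -2.85 without high MMP 1.

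The remaining H1 members were sparse. Hist1h1d (H1.3) had 7.58 and 1.67 normalized reads in high MMP 1 and 2 and 7.85 and 11.5 in low MMP 1 and 2. High MMP 1 lay just under low MMP 1 only after scaling, with 10 whole reads against 9. The log2 difference of Hist1h1d was -1.14 (SE 0.68). Hist1h1e (H1.4) had 4 and 3 reads in the high and 0 and 8 in the low MMP libraries, with a log2 difference of 0.40 (SE 1.09) whose sign changed with the method. Neither difference passed the test at this depth of at most 13 reads per library. Hist1h1e also overlaps Hist1h2be on the same strand, so reads of these genes cannot be told apart without the counting rule.

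The H2B members held the lowest unadjusted p among the 5 best measured genes. Hist2h2be (ENSMUSG00000068854, chr3:96221119-96223738, plus strand), an H2B gene of the smaller cluster on chromosome 3, had 33.3 normalized reads in high MMP 1, 19.2 in high MMP 2, 51.4 in low MMP 1 and 60.2 in low MMP 2. The groups did not overlap, but high MMP 1 minus low MMP 1 was -0.61 on the log2 scale, less in size than high MMP 1 minus high MMP 2, 0.76. The log2 difference was -1.10 (SE 0.34), with an unadjusted limma p of 0.0287 and an adjusted p of 0.472, and -0.72 without high MMP 2. All 75-base windows of its transcript were found in no other gene.

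Hist1h2bc (ENSMUSG00000018102, chr13:23684199-23692908, plus strand), an H2B gene of the large cluster, had 33.3 in high MMP 1, 8.37 in high MMP 2, 56.7 in low MMP 1 and 70.8 in low MMP 2. The groups did not overlap here either, and high MMP 1 was nearer to low MMP 1 than to high MMP 2 on the log2 scale. Its log2 difference of -1.84 (SE 0.69) was the most negative of the 5, with an unadjusted limma p of 0.0521 and an adjusted p of 0.507, and it was -0.91 without high MMP 2. Hist1h2be, the third H2B gene by mean, had 10 and 6 reads in the high and 12 and 8 in the low MMP libraries, and its groups overlapped.

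Hist1h4i encodes histone H4, whose protein is the same from nearly all H4 genes. The gene (ENSMUSG00000060639, chr13:22040636-22041362, minus strand) had 52.3 normalized reads in high MMP 1, 20.9 in high MMP 2, 49.7 in low MMP 1 and 62.0 in low MMP 2. High MMP 1 lay between the low MMP libraries, so the groups overlapped. The log2 difference of -0.73 (SE 0.49, unadjusted limma p 0.211, adjusted p 0.746) became -0.08 without high MMP 2. Hist1h4d had 8 and 8 reads in the high and 5 and 12 in the low MMP libraries, and Hist1h4k had 9 and 3 against 10 and 10, with log2 differences of -0.10 (SE 0.49) and -0.90 (SE 0.50).

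Hist3h2a (ENSMUSG00000078851, chr11:58954685-58956830, plus strand) is a single H2A gene on chromosome 11. It had 29.6 normalized reads in high MMP 1, 2.51 in high MMP 2, 7.85 in low MMP 1 and 25.7 in low MMP 2, the widest spread within a group among the 5. The high MMP values were the highest and the lowest of the 4, with an 11.8-fold gap between them. The log2 difference was -0.57 (SE 1.24, unadjusted limma p 0.669, adjusted p 0.955) and turned to 0.99 without high MMP 2. The gene overlaps Trim17 on the same strand and Gm44313 on the opposite strand, so reads of these genes cannot be told apart without the counting rule. Of the 46 members, 15 overlap another annotated gene, and 5 do so on the same strand, among them Hist1h1e, Hist1h2be and Hist1h2ac. Hist1h2ae and Hist1h2ac, next by mean among the H2A members, had 1 to 6 and 1 to 3 reads per library.

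**Figure D3:**
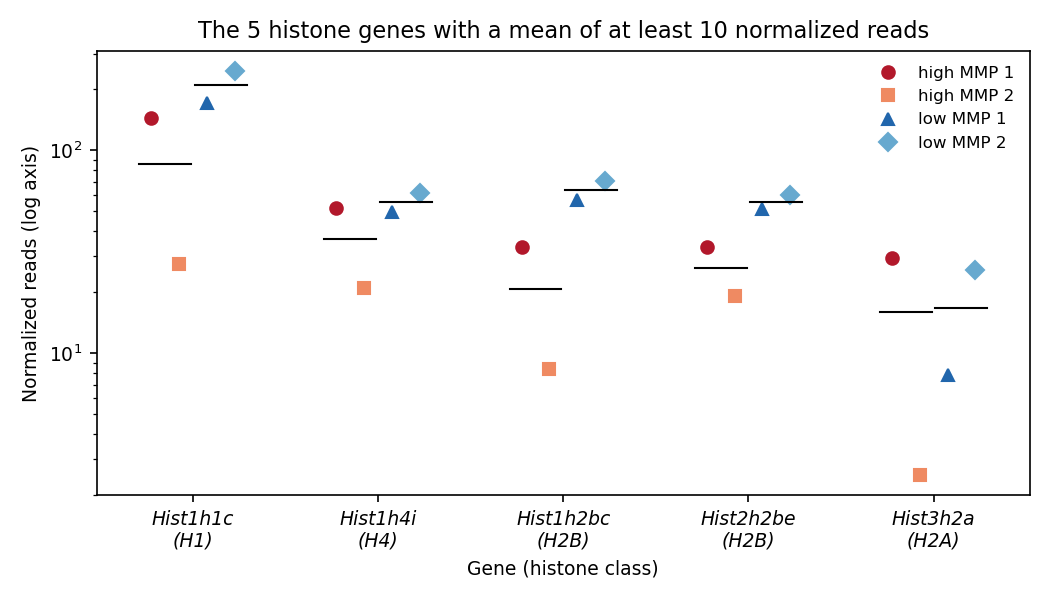
Normalized reads (log axis) of the 5 members with a mean of at least 10 in each library, with black lines at the group means (n = 2). High MMP 2 is the lowest point for all 5 genes, and high MMP 1 lies under both low MMP points for Hist1h1c, Hist1h2bc and Hist2h2be only.

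All 5 of these members had their lowest value in high MMP 2, against 29.3% of the 12902 genes at this level. High MMP 1 was at least 2-fold over high MMP 2 on the log2(value + 1) scale in 1.15% of those genes, among them Hist1h1c, Hist1h4i, Hist1h2bc and Hist3h2a. In 3 of the 5 both high MMP values were under both low MMP values, against 23.7% of those genes.

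H3 was represented by few reads in each gene. Hist1h3d had 3 and 2 reads in high MMP 1 and 2 and 8 and 3 in low MMP 1 and 2, and Hist1h3g had 2 and 0 against 5 and 3. Hist1h3b went the other way in its mean, with 3 and 1 against 0 and 2. The log2 differences were -0.87 (SE 0.51), -1.48 (SE 0.58) and 0.56 (SE 0.66), and no difference was detectable at this depth.

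Besides Hist2h2be, 5 members had an unadjusted limma p under 0.05, and they are named here after their values were seen. Hist2h4, an H4 gene, had no read in either high MMP library and 4 and 3 reads in the low MMP libraries. Hist2h3c2 had 0 and 0 against 1 and 2 reads, and Hist1h2ah 0 and 0 against 1 and 1. In the other direction, Hist1h2ak had 1 and 2 reads against 0 and 0, and Hist1h4b 3 and 3 against 1 and 0. All 5 thus rest on at most 4 reads in a library, and among the 7295 genes with a mean under 10 the unadjusted p was under 0.05 in 14.1%, against 7.63% of genes at or above 10. Hist2h4, Hist2h3c2, Hist1h2ah and Hist1h2ak had reads in 1 group only. The authors' filter, expression in at least 2 of the 4 samples, kept them through that group alone. Their p-values and their lack of overlap thus give no support for a difference.

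The level of a member was set beside the amount of sequence that it shares with other genes, as reads that match several genes can be lost or assigned to a copy. The share of 75-base windows (the read length) found in no other annotated gene ranged from 6.53% for Hist1h3h to 100% over the members, with a median of 64.2%. In 32 of the 46 members at least 50% of the windows were found in no other gene, and these had a median level of 3.08 normalized reads per kilobase, against 1.58 for the other 14. All 5 best measured members were among the 32. The 21 genes that were not analysed here had a median of 21.7%, and 2 of them had no such window.

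By class, the median share of windows found in no other gene was 95.9% for H1, 76.5% for H4, 63.4% for H2B, 47.7% for H3 and 44.6% for H2A. H2A and H3 also had the lowest median levels per kilobase, 1.55 and 1.25, against 2.78 for H1, 3.14 for H2B and 3.31 for H4. Hist1h4k stood apart with 21.6 normalized reads per kilobase at a share of 31.9%, so its reads may belong to any of 10 other genes with shared windows. How reads with several matches were counted is not given in the sources used here, and its part in these levels was not tested.

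**Figure D4:**
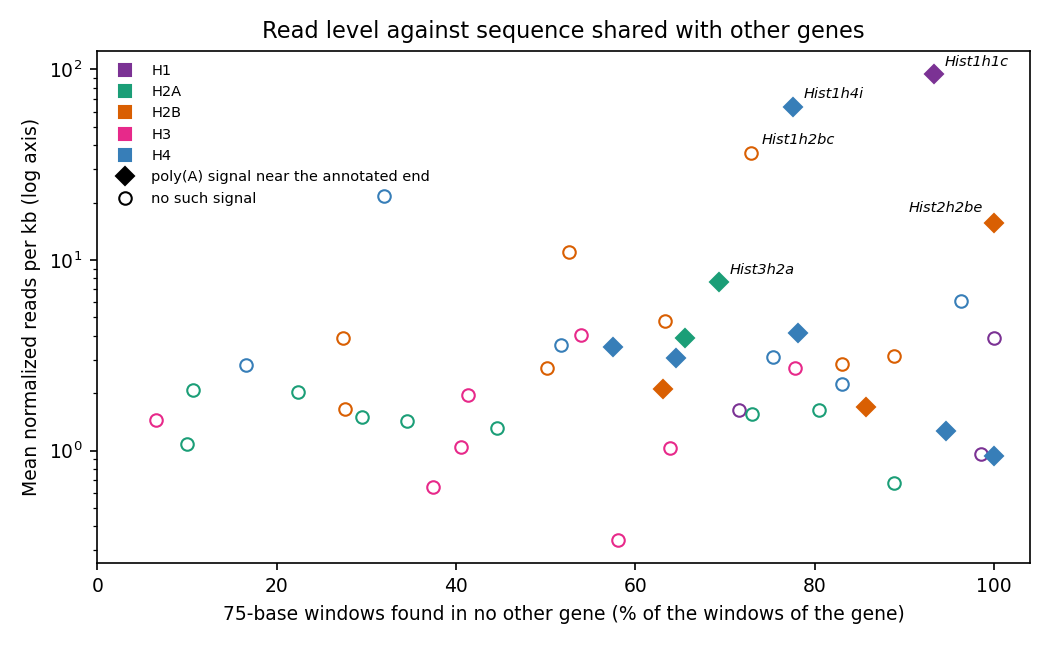
Mean normalized reads per kilobase of exon (log axis) against the percentage of 75-base windows of a member found in no other annotated gene, colored by class, with filled diamonds for a poly(A) signal near the annotated end and open circles for none. The 5 labelled members lie at 69.4% or more, and 4 of them carry the signal.

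The 12 members with a poly(A) signal at the annotated end held 71.1% of the reads of all members, and Hist1h1c alone gave 698 of these 1305 reads. The median level of the 12 was 3.69 normalized reads per kilobase, against 2.05 for the 34 without, a description in which overlapping families of sequence are counted as separate genes. All 12 had at least 57.6% of their windows in no other gene, and 0 of the 14 members under 50% carried the signal. The signal and the shared sequence thus cannot be told apart in these levels. Hist1h2bc was the 1 member with a mean of at least 10 and no such signal. The summed level of the 12 was 285 and 81.2 in high MMP 1 and 2 and 311 and 421 in low MMP 1 and 2. That of the 34 others was 110 and 44.4 against 136 and 157, so both groups of members were lowest in high MMP 2 and had log2 ratios of -0.999 and -0.924.

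Other RNAs that lack a poly(A) tail are listed beside the members, and whether their sums follow the capture of histone mRNA was not tested. The 202 small structured RNA genes in the table (small nuclear, nucleolar and related types) summed to 1319 normalized reads in high MMP 1, 2299 in high MMP 2, 2403 in low MMP 1 and 2341 in low MMP 2. These genes were picked by gene type alone, and their sum was lowest in high MMP 1. Of a list of 21 abundant RNAs without a tail, 5 were in the table, with sums of 69.7 and 85.4 in the high and 113 and 164 in the low MMP libraries. The part of RNA capture in the histone levels was not tested.

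Histone promoters share short motifs by class, and 42 members had a RefSeq promoter window on GRCm38.p6 (250 bases before to 50 after the start). Both strands were searched for CCAAT and for TATAAA. They were also searched for ATTTGCAT, the octamer bound by POU2F1 at H2B genes. The last motif was the H1 box, which reads AAACACA, and no motif is contained in another. CCAAT was in the windows of all 4 H1, 11 H2A, 9 H2B and 7 H3 members but in 3 of 11 H4 members, against 37.4% of 32851 windows of all genes. The H1 box was in all 4 H1 members and in 1 H2A and 1 H2B member (7.18% of all windows). The octamer was in 6 of 11 H2A and 5 of 9 H2B members and in no member of the other classes (1.74% of all windows). For Hist1h2be the window of the upstream start was counted, which lacks the octamer. Its window at the downstream start, nearer the stem-loop, has the octamer and was not counted. TATAAA was in 25 of 42 members (13.6% of all windows). Some H2A and H2B genes on opposite strands have overlapping windows, such as Hist1h2ah and Hist1h2bk (named for this overlap). With both strands searched, 1 site can count in both classes, so these counts are not independent.

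The 150 bases before the start are shown for the 3 best measured members with a window, with motifs in capitals.
Hist1h1c (RefSeq H1f2), chr13:23738657-23738806 (+): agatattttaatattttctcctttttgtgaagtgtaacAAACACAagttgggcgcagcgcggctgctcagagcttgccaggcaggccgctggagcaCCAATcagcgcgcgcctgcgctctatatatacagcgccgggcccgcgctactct
Hist3h2a (RefSeq H2aw), chr11:58954535-58954684 (+): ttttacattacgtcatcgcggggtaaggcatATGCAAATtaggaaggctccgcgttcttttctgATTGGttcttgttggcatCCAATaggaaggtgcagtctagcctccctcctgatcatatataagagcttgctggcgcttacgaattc
Hist1h4i (RefSeq H4c9), chr13:22041363-22041512 (-): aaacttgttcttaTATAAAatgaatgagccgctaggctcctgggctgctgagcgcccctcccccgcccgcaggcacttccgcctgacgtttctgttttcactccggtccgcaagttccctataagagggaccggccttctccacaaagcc
Hist1h1c has the H1 box 112 and a CCAAT 54 bases before the start. Hist3h2a has a CCAAT 68 bases before the start and reverse complements of the octamer at 119 and of CCAAT at 86. Hist1h4i has a TATAAA 137 bases before the start and none of the other 3 motifs in these bases. A match is a description of letters, not a site that was shown to be bound.

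Histone variants encoded outside the clusters, most of which are made from polyadenylated mRNAs, were measured in the same libraries and had a far higher summed level. The 11 of 13 listed variants in the table summed to 56242 and 46456 normalized reads in high MMP 1 and 2 and to 48617 and 51638 in low MMP 1 and 2, a log2 ratio of 0.03. This was 0.281% and 0.232% of all reads in the high and 0.243% and 0.258% in the low MMP libraries. High MMP 2 was again the lowest of the 4, but only 1.21-fold under high MMP 1, against 3.14-fold for the members. Per kilobase, the level was 6557 for H3f3b (H3.3), 4771 for H2afz (H2A.Z) and 4569 for H1f0 (H1.0, the linker histone of resting cells), against 94.5 for Hist1h1c.

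The most abundant variants differed little between the groups. The log2 difference was -0.05 (SE 0.12) for H2afz, 0.07 (SE 0.12) for H2afv, the second H2A.Z gene, and -0.23 (SE 0.20) for H2afj. It was 0.11 (SE 0.14) for H3f3a and -0.02 (SE 0.19) for H3f3b, both of which encode H3.3, and -0.03 (SE 0.13) for H1f0. H2afy, which encodes macroH2A1, differed by 0.02 (SE 0.09) and Cenpa, the centromeric H3, by 0.22 (SE 0.14). The direction of H3f3b and H1f0 turned under median-of-ratios scaling (0.02 and 0.01), and the adjusted limma p of all these variants was 0.711 to 0.994. H3f3c had 5 to 16 reads per library, and H2afy2 (macroH2A2) had no read in the high and 1 in each of the low MMP libraries.

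H2afx was the variant with the largest difference among those well measured. It encodes H2A.X, which is phosphorylated around DNA breaks, and it is 1 of the 2 genes outside the members with a stem-loop after the stop codon, the other being H2bfm. Its mRNA is known in both a stem-loop and a polyadenylated form, and both elements are in the annotated transcript.
H2afx stem-loop, chr9:44335233-44335262 (+): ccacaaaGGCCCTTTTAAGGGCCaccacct
H2afx annotated end, chr9:44336033-44336062 (+): ggctaattttATTAAAggatcgtttggttt
H2afx had 2265 and 1880 normalized reads in high MMP 1 and 2 and 1115 and 1412 in low MMP 1 and 2, so both high MMP values lay over both low MMP values. The log2 difference was 0.72 (SE 0.17), with an unadjusted limma p of 0.0109, an adjusted p of 0.472 and a DESeq2 adjusted p of 0.00481 on the recovered reads. This direction is opposite to that of the summed members, and the difference between the 2 contrasts was not tested.

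Genes that drive histone transcription were lower in high MMP cells where their unadjusted p was under 0.05, which was so for 4 of 11 (9.96% of all genes). The kinase CDK2 with cyclin E phosphorylates NPAT, the coactivator of histone clusters. Ccne2, which encodes cyclin E2, had 550 and 493 normalized reads in high MMP 1 and 2 and 948 and 1009 in low MMP 1 and 2, a log2 difference of -0.91 (SE 0.10). Cdk2 had 1268 and 1454 against 1923 and 1946, a difference of -0.51 (SE 0.10). In both genes the high MMP values lay under the low MMP values.

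Casp8ap2 (FLASH), a component of the histone locus body needed for histone mRNA synthesis and processing, had 953 and 1054 in high MMP 1 and 2 and 1724 and 1632 in low MMP 1 and 2. Its log2 difference was -0.74 (SE 0.09). Hinfp, which activates H4 genes, differed by -0.33 (SE 0.08), and Npat itself by -0.19 (SE 0.13), with 1102 and 1367 in the high and 1375 and 1420 in the low MMP libraries. The adjusted limma p was 0.472 for Ccne2, Cdk2, Casp8ap2 and Hinfp and 0.752 for Npat. DESeq2 on the recovered reads called Ccne2 and Casp8ap2 of these (adjusted p 0.000204 and 0.00215).

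Of 25 listed names for histone mRNA processing and decay, 24 matched a gene in the table, and the other name matched no annotated gene. Of the 24 genes, 2 had an unadjusted limma p under 0.05, 1 in each direction, a share of 8.33% against 9.96% of all genes. Slbp, which encodes the stem-loop binding protein, had 3047 normalized reads in high MMP 1, 2352 in high MMP 2, 3496 in low MMP 1 and 3758 in low MMP 2. It differed by -0.44 on the log2 scale (SE 0.15, adjusted limma p 0.475) and had its lowest value in high MMP 2, as the best measured members did. Ctif, a translation factor for newly exported mRNAs that also acts in histone mRNA decay, was the gene in the other direction, with 516 and 512 against 368 and 366, a difference of 0.49 (SE 0.08, adjusted limma p 0.472).

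The specific parts of the U7 snRNP, which cuts the pre-mRNA after the stem-loop, were nearly level. Lsm10 differed by -0.08 (SE 0.15) and Lsm11 by -0.08 (SE 0.11), and Zfp473 (ZFP100), which joins SLBP and U7, by 0.02 (SE 0.23) on 38.1 to 46.9 normalized reads. Eri1, the exonuclease that trims the histone 3′ end, differed by 0.03 (SE 0.10). The adjusted limma p of these 4 genes was 0.888 to 0.994, and the sign of Lsm10 turned under quantile normalization (0.01).

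Among 22 histone chaperones, 3 had an unadjusted limma p under 0.05, and all 3 were lower in high MMP cells, a share of 13.6% against 9.96% of all genes and thus near the background. CAF-1 places new H3 and H4 on replicated DNA, and its subunit genes Chaf1a and Chaf1b differed by -0.48 (SE 0.09) and -0.54 (SE 0.14). Tonsl, which reads unmodified H4 on new chromatin, had 596 and 562 in high MMP 1 and 2 and 903 and 977 in low MMP 1 and 2, a difference of -0.70 (SE 0.09). The adjusted limma p was 0.472 for each (0.0174 for Tonsl with DESeq2), and the median over the 22 genes was -0.10.

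**Figure D5:**
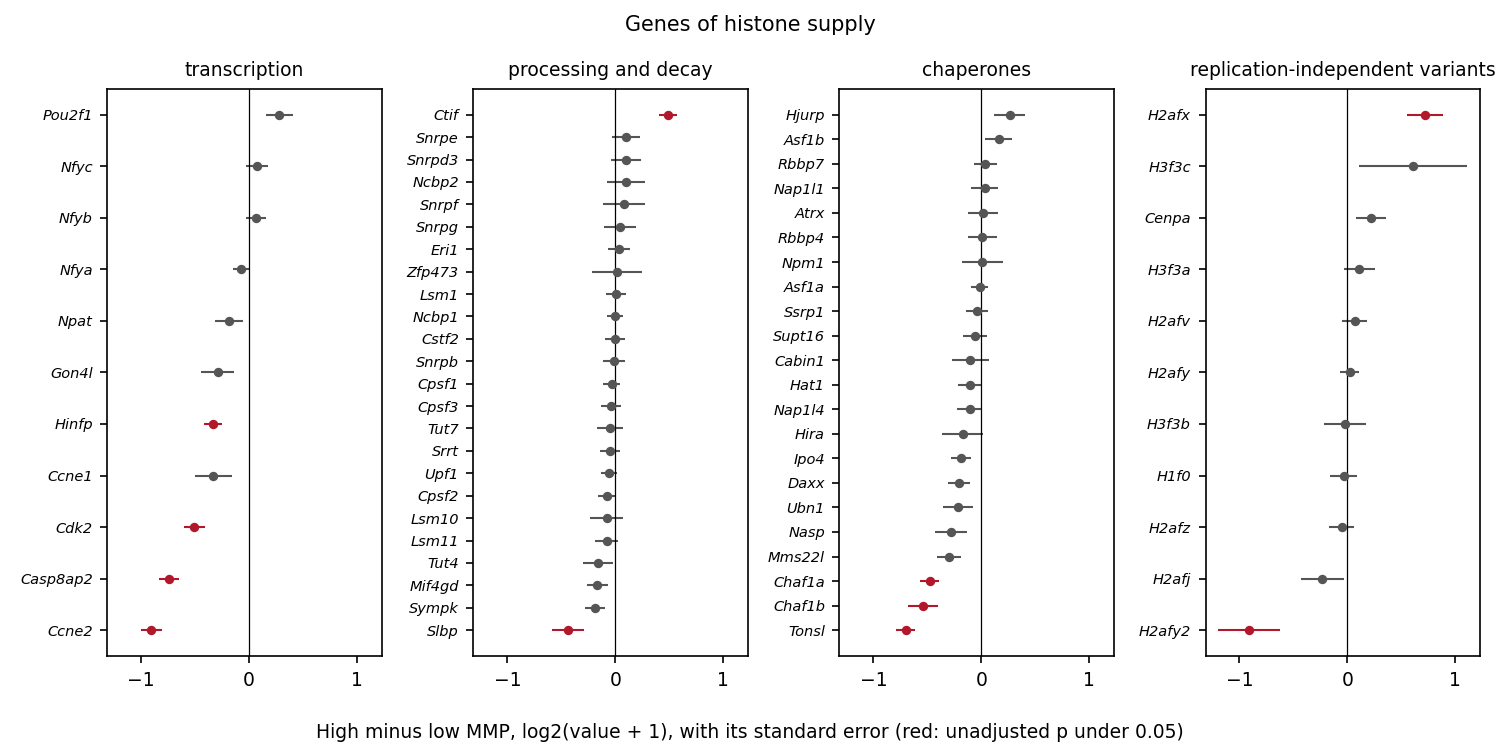
High minus low MMP difference on the log2(value + 1) scale with its standard error for genes of histone transcription (11), mRNA processing and decay (24), chaperones (22) and replication-independent variants (11), red where the unadjusted limma p is under 0.05. The red points of the transcription and chaperone panels all lie left of 0, and Ctif and H2afx are the red points to its right.

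Genes of the cell cycle moved with the groups, and histone synthesis is tied to S phase, so their values are given beside the members. The S-phase list of 43 genes summed to 117555 and 99923 normalized reads in high MMP 1 and 2 and to 139281 and 141669 in low MMP 1 and 2, with no gene at 0. Of these, 25 had an unadjusted limma p under 0.05, all lower in high MMP cells (6.01% of all genes), and 36 had their lowest value in high MMP 2. The G2/M list of 54 genes summed to 264836 and 274755 in the high and to 203016 and 209034 in the low MMP libraries, with 30 at an unadjusted p under 0.05, all higher (3.95% of all genes). Slbp, Ccne2, Casp8ap2 and Chaf1b are on the S-phase list and Cenpa on the G2/M list. The part of cell cycle phase in the histone levels was not tested.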

How the data were processed

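Groups were taken from the sample titles (2 high and 2 low MMP). The authors aligned reads to the mouse transcriptome (GRCm38, mm10) with STAR, and the submitters' processing notes also name HTSeq. They divided the counts by library size and kept genes expressed in at least 2 of the 4 samples. Versions, annotation release, strand setting and the handling of reads with several matches are not given in the sources used here. The deposited values are thus a normalized signal per gene, and dividing each column by its smallest step recovered whole reads for 100% of values (tolerance 0.1). Table columns that belong to no sample numbered 0.

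Of 20197 gene identifiers, 19993 matched GENCODE M21, which gave symbols, positions and transcripts. Promoters came from RefSeq (GRCm38.p6). Limma 3.58.1 (R 4.3.3, trend, no block) was run on log2(value + 1), a scale that shrinks the differences of low genes, with Benjamini-Hochberg adjustment over all genes and a threshold of 0.05. Alternatives were DESeq2 1.42.0 and the quasi-likelihood test of edgeR 4.0.16, both on recovered reads, other pseudocounts, filters and scalings, the replicate number as a block, and each sample left out in turn. The code was tested on simulated data. The stem-loop was searched in every annotated protein-coding transcript of a gene.

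The members and lists were chosen with earlier results of these data known. Genes named are the 3 members of each class with the highest mean, members with an unadjusted p under 0.05 and a mean of at least 10, members at the edge of a printed range, all listed variants, the core transcription and processing factors, and other list genes with an unadjusted p under 0.05. Genes outside this rule are marked.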

Additional observations from a re-analysis of the deposited data

How the results depend on the processing

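No member passed the adjusted threshold in limma under any pseudocount, filter or scaling, in edgeR or DESeq2, or with a sample left out. DESeq2 called 118 of all genes and edgeR 0. Most members had no adjusted p in DESeq2 and so could not pass there. Same-numbered samples did not deviate together (correlation -0.42 over 12902 genes), so the numbers were not taken to pair the samples. With the replicate number as a block, limma called 0 genes and edgeR called 106 genes (0.525%), among them 2 members (Hist1h1c and Hist1h2bc). A crossed pairing, chosen after seeing the data, gave 733 genes (3.63%) and 3 members in edgeR. The cause was not tested.

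The log2 ratio of the summed members was -0.98, and -1.19 as the mean of the pair ratios under the replicate block. With 1 sample left out it ran from -2.03 to -0.38 for all members, from -2.79 to -0.51 for H1, from -2.05 to 0.66 for H2A, from -1.89 to -0.70 for H2B, from -1.44 to -0.84 for H3 and from -1.20 to -0.011 for H4. H2A turned to 0.03 with quantile normalization.

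Of 667 alternatives for 40 named genes, 607 kept direction and side of the threshold, 21 passed it and 39 turned. Hist1h1e turned to -0.034 (pseudocount 10), -0.29 (edgeR), -0.041 (edgeR with the block), -0.31 (DESeq2) and -0.23 (edgeR crossed). Hist3h2a turned to 0.0098 (edgeR). Hist1h4d turned to 0.048 (quantile normalization). Lsm10 turned to 0.0051 (quantile normalization). H3f3b turned to 0.024 (median-of-ratios scaling), 0.035 (edgeR), 0.020 (edgeR with the block), 0.040 (DESeq2) and 0.020 (edgeR crossed). H1f0 turned to 0.0080 (median-of-ratios scaling), 0.010 (edgeR), 0.0040 (edgeR with the block), 0.014 (DESeq2) and 0.0041 (edgeR crossed). With 1 sample left out, differences that turned ran from -1.10 to 1.91 for Hist1h1e, from -2.13 to 0.99 for Hist3h2a, from -0.18 to 1.29 for Hist1h3b, from -0.66 to 0.46 for Hist1h4d, from -0.18 to 0.027 for Lsm10, from -0.17 to 0.010 for Lsm11. They ran from -0.12 to 0.16 for Zfp473, from -0.065 to 0.13 for Eri1, from -0.16 to 0.058 for H2afz, from -0.040 to 0.17 for H2afv, from -0.48 to 0.021 for H2afj, from -0.040 to 0.085 for H2afy, from -0.067 to 0.29 for H3f3a, from -0.24 to 0.20 for H3f3b, from -0.16 to 0.095 for H1f0. Depth limits the 41 members with a mean under 10, which have at most 14 reads in a library.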
